A study of Rattus norvegicus with 18 samples.

Results

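Collagen chain genes encode the alpha chains of the collagens, the main structural proteins of connective tissue and of basement membranes. All genes with a symbol of the form Col, number, a, number in the array annotation were taken, except Col7a1 and Col17a1, and each gene was represented by its probe set of highest mean signal over the 18 samples. This gave 39 genes of the 14217 genes that the annotation names, and 56 of the 31042 probe sets tested. By the structure of their products 11 genes were fibrillar, 8 formed networks, 9 were FACIT collagens (fibril-associated collagens with interrupted triple helices) and 11 fell in other classes. Signal was measured on Affymetrix rat expression arrays and is given here as log2 of the deposited value.

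The samples came from the tongue of male Sprague Dawley rats. Normal control rats drank distilled water only. Rats with dysplasia or squamous cell carcinoma (SCC) drank water with 0.002% 4-nitroquinoline-1-oxide (4NQO), a carcinogen that forms DNA adducts, and were killed between week 14 and week 22 when lesions could be seen. At each of the 3 stages the epithelial layer was peeled off with dispase, and fibroblasts were obtained from the connective tissue below it by collagenase digestion and brief adherence to a culture dish. The study describes both layers as pure and checked for purity. With 3 samples per group this gave normal, dysplasia and SCC epithelia and normal, dysplasia and SCC fibroblasts. The study describes each sample as material of 3 rats. The labels do not say whether the samples of one group came from different rats, and p-values here reflect only how far the given samples spread, which may be technical.

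In fibrillar collagens (types I, II, III, V, XI, XXIV and XXVII) 3 chains wind into a long triple helix, and many helices pack side by side into the fibrils that carry tension. Types I and III are the bulk of the connective tissue of the tongue, and the type V chains sit inside type I fibrils and limit their width. Network collagens make sheets: type IV forms the mesh of every basement membrane, including the one under the epithelium, and types VIII and X form lattices in vessels and cartilage. FACIT collagens such as types XII and XIV lie on the surface of fibrils and link them to their surroundings. The remaining members include type VI, which forms beaded filaments around cells, types XV and XVIII, which carry glycosaminoglycan chains next to basement membranes, and the membrane-spanning types XIII, XXIII and XXV.

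The type IV genes lie in head-to-head pairs, with the chains of a pair transcribed in opposite directions. As these pairs moved in opposite directions in the epithelia, the windows around their starts are shown, 250 bases before to 50 bases after the start of each gene, written 5′ to 3′ on the strand of the gene. The sequences are from RefSeq, rat build GRCr8, whose promoter table matched 30 of the 39 genes. Capitals mark matches, on either strand, of the CCAAT box (CCAAT) and the GC box (GGGCGG), and no match of the TATA box (TATAAA) was found in the 4 windows.
Col4a1, chr16:84885347-84885646, forward strand: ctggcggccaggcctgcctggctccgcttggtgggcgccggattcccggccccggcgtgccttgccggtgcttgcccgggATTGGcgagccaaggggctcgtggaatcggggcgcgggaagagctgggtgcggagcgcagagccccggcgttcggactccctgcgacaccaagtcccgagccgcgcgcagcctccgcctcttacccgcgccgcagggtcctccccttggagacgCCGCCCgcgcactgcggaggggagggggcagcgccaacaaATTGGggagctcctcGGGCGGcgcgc
Col4a2, chr16:84885471-84885770, reverse strand: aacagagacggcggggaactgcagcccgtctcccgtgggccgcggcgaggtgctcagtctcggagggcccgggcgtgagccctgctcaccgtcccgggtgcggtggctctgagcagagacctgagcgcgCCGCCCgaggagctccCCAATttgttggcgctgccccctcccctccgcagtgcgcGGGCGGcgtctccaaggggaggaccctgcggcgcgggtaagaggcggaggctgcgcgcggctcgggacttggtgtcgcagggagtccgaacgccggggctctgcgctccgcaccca
Col4a5, chrX:109907109-109907408, forward strand: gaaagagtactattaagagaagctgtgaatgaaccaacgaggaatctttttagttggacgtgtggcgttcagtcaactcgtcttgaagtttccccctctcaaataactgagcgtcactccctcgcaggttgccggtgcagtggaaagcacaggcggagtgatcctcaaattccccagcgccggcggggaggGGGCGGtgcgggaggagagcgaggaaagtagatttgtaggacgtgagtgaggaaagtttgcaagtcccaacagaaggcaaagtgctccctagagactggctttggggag
Col4a6, chrX:109905895-109906194, reverse strand: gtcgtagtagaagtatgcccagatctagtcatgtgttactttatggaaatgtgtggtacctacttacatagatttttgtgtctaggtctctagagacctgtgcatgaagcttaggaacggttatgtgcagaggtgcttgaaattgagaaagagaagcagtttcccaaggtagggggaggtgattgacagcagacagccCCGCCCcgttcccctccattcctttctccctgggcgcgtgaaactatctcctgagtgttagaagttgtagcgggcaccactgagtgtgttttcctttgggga
The starts of Col4a1 and Col4a2 were 77 bases apart, so that their windows shared 176 bases and with them 2 GC boxes and a CCAAT box. Those of Col4a5 and Col4a6 were 1415 bases apart, and each window held 1 GC box and no CCAAT box. Of all 33469 promoters given there, 37.5% held a CCAAT box, 33.1% a GC box and 14.2% a TATA box. A match describes letters only, and binding was not measured.

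The labelled layers were checked on marker genes that are not collagens. The mean log2 signal of 20 fibroblast markers was between 10.83 and 12.29 in the fibroblast samples. In the epithelia it was 5.93, 7.01 and 5.95 in the normal samples, 7.21, 6.52 and 6.59 in the dysplasia samples, and 8.38, 10.30 and 6.84 in SCC epithelia 1, 2 and 3. SCC epithelia 2 thus came close to the fibroblast samples, and normal epithelia 2 was the highest normal sample. The mean of 16 epithelial markers was between 12.80 and 12.92 in the epithelia and still between 10.29 and 12.35 in the fibroblast samples, lowest in normal fibroblasts 3 at 10.29, so the samples labelled fibroblasts carried keratinocyte transcripts as well. The part of such transcripts in the results below was not tested, and in bulk samples fewer cells of a type and less RNA per cell cannot be told apart. The third sample of each fibroblast group was also the highest of its group for most collagens. Of the 20 genes with a mean log2 signal above 7, this held for 18 in the normal, 19 in the dysplasia and 18 in the SCC fibroblasts. Of all 39 genes it held for 28, 27 and 26. The cut at 7 was set on the mean of these same samples, and the share over all probe sets was not counted.

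Most of the collagen genes called between the layers were higher in fibroblasts than in epithelia. In the normal state 26 of the 39 genes were higher in fibroblasts and 4 were lower (limma, Benjamini-Hochberg adjusted p under 0.05), against 27.7% of all probe sets higher and 35.7% lower (63.4% in either direction). The median log2 difference of the 39 genes was 2.43, against -0.15 for all probe sets. After alignment on spike-in controls (the hybridization controls added to each array) it was 1.57, against -1.01 for all probe sets. In the dysplasia state 24 genes were higher and 3 lower, against 23% and 27.4% of all probe sets (50.4% together), and the median difference was 2.17, or 1.05 after alignment on the spike-in controls, where 22 rather than 29 genes were above 0. In the SCC state 19 were higher and 3 lower, against 20.1% and 18.1% (38.3% together), and the median difference was 1.86, or 1.55 after that alignment. By class, the median differences of the normal, dysplasia and SCC states were 3.35, 2.48 and 1.86 for the fibrillar genes, 2.44, 2.42 and 2.09 for the network genes, 0.47, 0.61 and 0.36 for the FACIT genes, and 2.33, 1.81 and 0.97 for the other genes. The FACIT class divided: Col12a1, Col14a1, Col16a1 and Col9a3 were far higher in normal fibroblasts, whereas Col9a1, Col9a2 and Col20a1 were slightly lower.

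**Figure D1:**
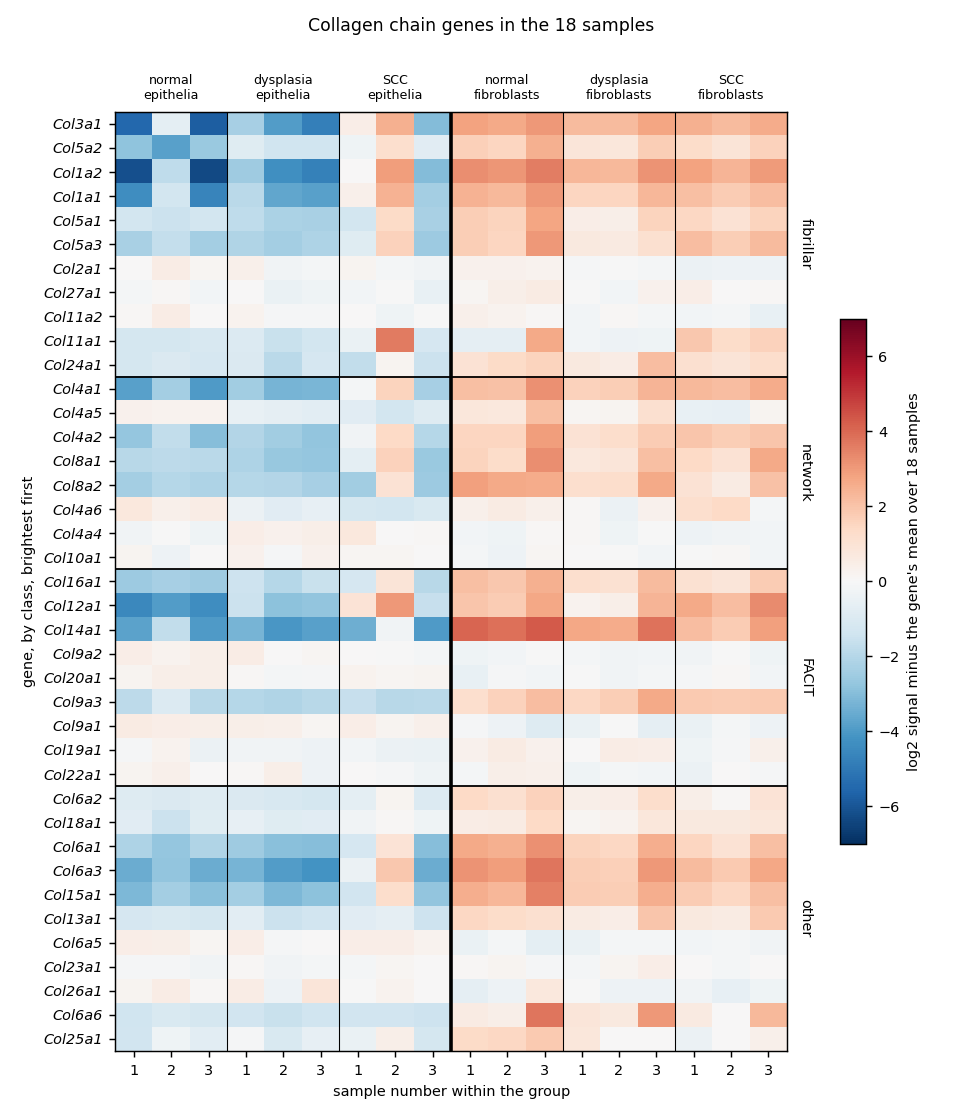
Each row is a collagen chain gene, grouped by class with the brightest gene of a class on top, and each column 1 of the 18 samples; the colour is the log2 signal minus the gene's own mean. Most bright genes are low in the epithelia and high in the fibroblasts, and SCC epithelia 2 is red like a fibroblast sample.

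The widest layer difference in the normal state belonged to Col1a2, which encodes the second chain of type I collagen. Its log2 signal was 4.42, 8.81 and 4.29 in normal epithelia and 13.84, 13.70 and 14.15 in normal fibroblasts. All fibroblast samples lay above all epithelial ones, and normal epithelia 2 lay far above the other normal epithelia. The difference was 8.06 ± 1.24 (SE, n = 3 per group, adjusted p = 4.24e-05). Col14a1 was higher by 7.22 (adjusted p = 1.03e-06), Col3a1, the type III chain, by 6.82 and Col1a1 by 5.99. Col6a3 and Col12a1 were higher by 6.52 and 6.41 on the probe set used, but other probe sets gave less. For Col6a3 the second gave 1.87 (adjusted p = 0.00707) and the mean of both 4.19. For Col12a1 the other probe sets gave 1.41 and -0.39 (adjusted p = 0.0934 and 0.248) and the mean of all 3 was 2.48. The basement membrane chains Col4a1 and Col4a2 were also higher in fibroblasts, by 5.84 and 4.44. Beside them, the mean of 11 endothelial markers was between 9.74 and 11.26 in normal fibroblasts against 5.76 to 6.52 in normal epithelia, with 11 of 11 called higher, and the part of endothelial transcripts in these differences was not tested. In the SCC state the differences of Col1a1, Col1a2, Col3a1 and Col12a1 were no longer called (1.86, 2.73, 2.48 and 1.90, adjusted p from 0.0903 to 0.144). The SCC epithelia spread widely: Col1a2 was at 10.62, 13.54 and 7.54 there, against 13.38, 12.96 and 13.55 in SCC fibroblasts. SCC epithelia 2, the epithelial sample with most fibroblast marker signal, was the highest of them, and the part of fibroblast transcripts was not tested. Col4a6 was called higher in SCC fibroblasts than in SCC epithelia by 2.01 (adjusted p = 8.82e-05). The second probe set of Col4a6 gave -0.37 in that comparison (adjusted p = 0.0909), and the mean of both 0.82 (adjusted p = 0.00441).

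Col9a3, a chain of a FACIT known from cartilage, was called higher in fibroblasts at all stages. Its log2 signal was 3.51, 4.41 and 3.41 in normal epithelia and 6.54, 6.96 and 7.49 in normal fibroblasts, and it was 3.76, 3.39 and 3.50 in SCC epithelia and 7.17, 7.15 and 7.18 in SCC fibroblasts. No fibroblast sample overlapped an epithelial one at any stage. The difference was 3.22 in the normal, 3.96 in the dysplasia and 3.62 in the SCC state (adjusted p of at most 4.99e-07 in limma). The epithelial values, between 3.24 and 4.41 over all stages, are near the low end of the arrays and were not shown to be above background, so these differences may be understated. The partner chains of type IX went the other way at low signal, with Col9a1 lower in fibroblasts by 0.93 and Col9a2 by 0.54 in the normal state. Col6a5, a type VI chain, was lower by 0.76 and Col20a1 by 0.61.

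**Figure D2:**
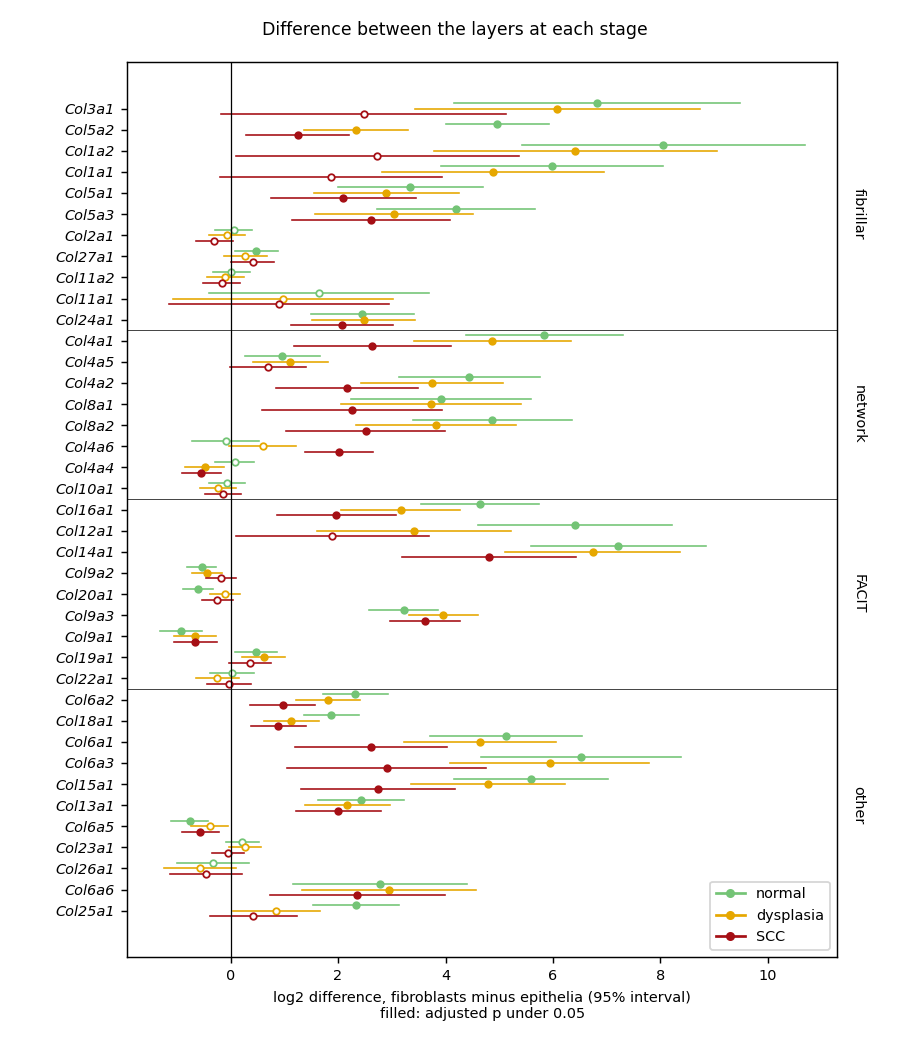
The x axis is the log2 difference of fibroblasts minus epithelia with its 95% interval for each gene at the normal, dysplasia and SCC stage, with filled points where the adjusted p was under 0.05. Most differences of the bright genes are smaller in the SCC than in the normal state, as for Col5a2 from 4.96 to 1.25.

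From the normal to the dysplasia state, 3 collagen genes changed in the epithelia. Col5a2, the second chain of type V collagen, rose, and the linked type IV chains Col4a5 and Col4a6 fell. These 3 are 7.69% of the members, and 14.5% of all probe sets were called, so the share was not above the background. The median change of the 39 genes was -0.12, or 0.03 with spike-in alignment, and that of all probe sets -0.06, or 0.09 with that alignment. Col5a2 was at 8.19, 7.18 and 8.40 in normal epithelia and at 10.18, 9.59 and 9.60 in dysplasia epithelia. Every dysplasia sample lay above every normal sample. Normal epithelia 2, the normal sample with most fibroblast marker signal, had the lowest value. Dysplasia epithelia 1, the dysplasia sample with most of that signal, had the highest. The part of fibroblast transcripts was not tested. The rise was 1.87 ± 0.49 on the log2 scale, or 3.64-fold (SE, n = 3 per group, limma adjusted p = 0.0379). It was no longer called without any 1 of the 6 normal and dysplasia epithelia (adjusted p from 0.0581 without normal epithelia 3 to 0.119 without normal epithelia 2). A second probe set of Col5a2 gave 1.54 (adjusted p = 0.0996).

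Col4a5 and Col4a6 encode the type IV chains that pair in the basement membrane of stratified epithelia. Col4a6 was at 7.36, 6.97 and 7.15 in normal, 6.24, 5.82 and 6.08 in dysplasia and 5.42, 5.34 and 5.54 in SCC epithelia. The 3 groups did not overlap, and the values stepped down from the normal to the dysplasia and on to the SCC samples. The change was -1.12 ± 0.15 from normal to dysplasia (adjusted p = 0.00373) and -1.73 ± 0.15 from normal to SCC (adjusted p = 0.000191). Col4a5 was at 9.73, 9.65 and 9.65 in normal, 8.91, 8.78 and 8.67 in dysplasia and 8.62, 8.13 and 8.54 in SCC epithelia. Again the groups did not overlap. The changes were -0.88 ± 0.14 (adjusted p = 0.00661) and -1.25 ± 0.14 (adjusted p = 0.000587), and for both genes they remained called without each of the 9 epithelial samples in turn. In 1 fit of all arrays the fall of Col4a5 from normal to dysplasia was no longer called (adjusted p = 0.0918). A dimmer second probe set of Col4a6 gave -0.80 (adjusted p = 0.00431) and -0.69 (adjusted p = 0.00263). From dysplasia to SCC that probe set gave 0.11 (adjusted p = 0.688), so the second step of Col4a6 was seen only on the probe set used. Of the 16 epithelial markers 1 rose and 1 fell from normal to SCC, and their mean was between 12.82 and 12.89 in the normal and between 12.80 and 12.91 in the SCC epithelia.

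From the dysplasia to the SCC state, no collagen gene passed the test in epithelia. In limma 0 of 39 were called, against 0.0258% of all probe sets. The methods' t-test, adjusted in the same way, called 0 of all probe sets, so its 0 is not particular to the collagens. At an unadjusted p under 0.05, 10 genes were higher and 2 lower, against 5.98% and 8.21% of all probe sets, the lower ones being Col4a5 and Col4a6. By a fold of at least 2 with that p, 8 were higher and 0 lower, against 1.71% and 0.374%. The median change was 0.35, against -0.03 for all probe sets. Without SCC epithelia 3, 6 genes were called higher, namely Col12a1, Col4a1, Col4a2, Col6a1, Col6a3 and Col8a1, and 2.37% of all probe sets were called.

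Over the whole course from the normal to the SCC state, 7 collagen genes changed in epithelia. Col5a2, Col12a1, Col4a1, Col4a2 and Col18a1 rose, and Col4a5 and Col4a6 fell, so that type IV chains were found on both sides. These 7 are 17.9% of the members against 29.9% of all probe sets, of which 12.6% were higher and 17.3% lower. The median change of all 39 was 0.45, against -0.09 for all probe sets, and with spike-in alignment 0.51 against -0.03. The class medians were 1.499 for the fibrillar, 0.67 for the network, -0.16 for the FACIT and 0.37 for the other genes. Along with this, 7 of the 20 fibroblast markers rose and 0 fell in limma (13 higher and 0 lower at an unadjusted p under 0.05), with a median change of 2.17.

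Col12a1, a FACIT chain on the surface of type I fibrils, had the largest change of all members. It was at 4.65, 5.23 and 4.78 in normal, 7.64, 6.25 and 6.36 in dysplasia and 10.10, 12.20 and 7.54 in SCC epithelia. All SCC samples lay above all normal ones, and SCC epithelia 3 lay within the dysplasia range. The change was 5.06 ± 0.96, or 33.4-fold (adjusted p = 0.00524), and it was called without each single sample. However, 2 dimmer probe sets of Col12a1 gave 0.28 and -0.25 (adjusted p = 0.751 and 0.431), and with the mean of the 3 probe sets the change was 1.70 (adjusted p = 0.051). Col5a2 was at 10.68, 12.17 and 10.22 in SCC epithelia, above all normal and all dysplasia samples. These values ran in the order of the fibroblast marker signal (8.38, 10.30 and 6.84), as did those of Col12a1, and its part was not tested. The change of Col5a2 from the normal state was 3.10 ± 0.49, or 8.58-fold (limma adjusted p = 0.00245). It was called without each single sample, and the second probe set gave 2.81 (adjusted p = 0.00663).

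Col4a1 and Col4a2 encode the chains found in nearly all basement membranes, including those of vessels. Col4a1 was at 6.03, 7.41 and 5.82 in normal, 7.35, 6.55 and 6.60 in dysplasia and 9.65, 11.35 and 7.49 in SCC epithelia. SCC epithelia 2 was the highest and SCC epithelia 3 barely exceeded the highest normal sample. The change was 3.08 ± 0.84 (adjusted p = 0.024), and it was lost without normal epithelia 1, normal epithelia 3 or SCC epithelia 1 (adjusted p = 0.0729, 0.0748 and 0.0596). The second probe set of Col4a1 gave 3.32 (adjusted p = 0.0221). Col4a2 was at 6.59, 7.58 and 6.28 in normal and 9.04, 10.67 and 7.28 in SCC epithelia, where SCC epithelia 3 fell below normal epithelia 2. The change of 2.18 ± 0.72 was barely past the threshold (adjusted p = 0.0498) and was lost without any 1 of 8 epithelial samples, all except SCC epithelia 3 (adjusted p from 0.0594 to 0.135). The mean of 11 endothelial markers was 5.83, 6.52 and 5.76 in normal and 7.33, 8.70 and 6.20 in SCC epithelia. It was ordered among the SCC samples like Col4a1 and Col4a2, but so were the fibroblast, macrophage and pericyte marker means. Of the 11 markers 2 rose, against 12.6% of all probe sets, and the part of these cell types was not tested.

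Col18a1, whose product carries the fragment endostatin at its end, rose least but with little scatter. It was at 9.51, 8.81 and 9.45 in normal, 9.74, 9.47 and 9.51 in dysplasia and 10.04, 10.36 and 9.98 in SCC epithelia. The SCC samples lay above all others. The change was 0.87 ± 0.20 (adjusted p = 0.0115), called without each single sample, and a second probe set gave 0.74 (adjusted p = 0.0168).

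The main fibrillar chains had larger mean changes than most called genes but did not pass the test. Col1a1 was at 6.12, 9.17 and 5.84 in normal, 8.54, 6.80 and 6.64 in dysplasia and 10.83, 12.87 and 8.09 in SCC epithelia. Col3a1 was at 5.73, 10.56 and 5.45 in normal, 8.93, 7.34 and 6.45 in dysplasia and 11.69, 13.71 and 8.20 in SCC epithelia. In both, normal epithelia 2 lay above SCC epithelia 3, so the groups overlapped. The changes were 3.55 ± 1.24 for Col1a1 (95% interval 0.75 to 6.36, adjusted p = 0.0585) and 3.95 ± 1.62 for Col3a1 (0.29 to 7.62, adjusted p = 0.0951), and Col1a2 gave 4.73 ± 1.60 (adjusted p = 0.0523). Without normal epithelia 2 and SCC epithelia 2, a setting added after seeing the data, 10 genes were called instead of 7, against 18.3% of all probe sets. Col1a1 (3.48, adjusted p = 0.0383), Col1a2 (4.73, 0.0206), Col3a1 (4.36, 0.037) and Col16a1 (0.97, 0.0496) were then among them, and Col4a2 was not. Without SCC epithelia 3, 16 were called, 14 higher and 2 lower, against 25.6% of all probe sets, 48.4% of those higher. With the cut-off of a fold of 2 and an unadjusted p under 0.05, 9 were higher and 2 lower, against 4.94% and 3.96% of all probe sets. Fibroblast marker signal ran in the same order in the SCC samples, 10.30, 8.38 and 6.84 for samples 2, 1 and 3, and its part in these changes was not tested.

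**Figure D3:**
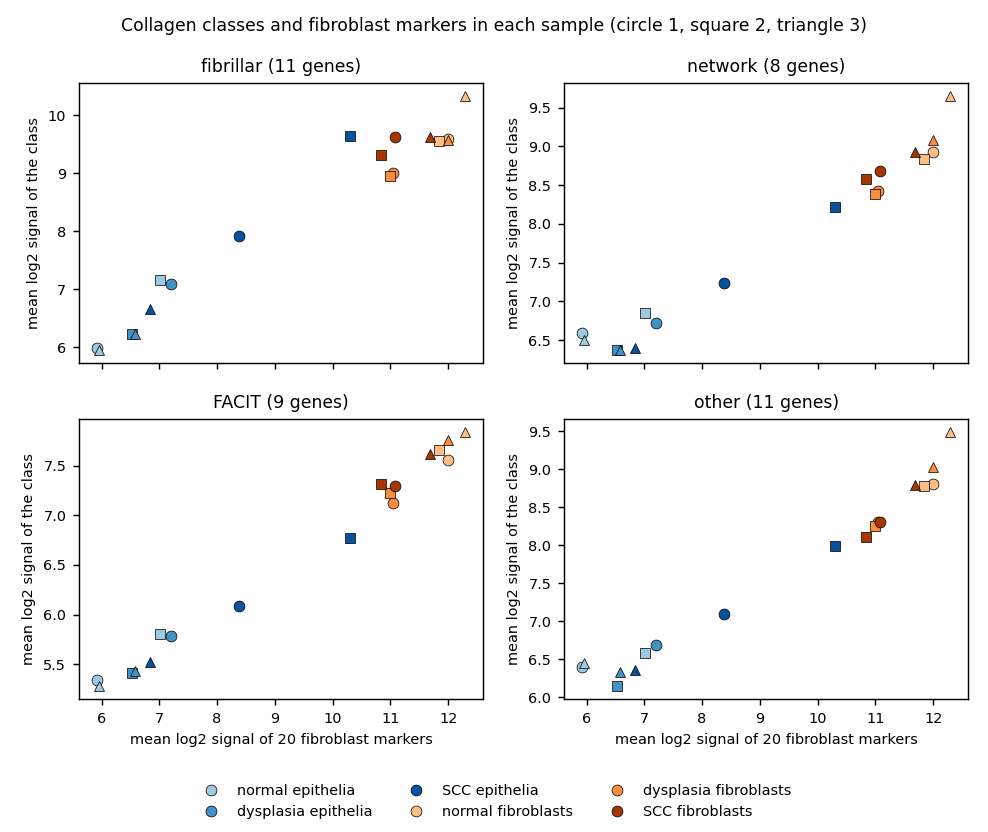
Each point is 1 sample, with the mean log2 signal of 20 fibroblast markers on the x axis and that of a collagen class on the y axis. The SCC epithelia spread along the x axis in order of their collagen signal in the fibrillar, network, FACIT and other classes, with SCC epithelia 3 at 6.84 on the x axis, SCC epithelia 1 at 8.38 and SCC epithelia 2 at 10.30.

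Among the remaining bright members, Col8a1 and Col8a2, the network chains of vessel walls, changed by 1.31 and 0.85 in epithelia from normal to SCC, and Col5a1 and Col5a3, further type V chains, by 0.611 and 1.499, all uncalled. Col6a1, Col6a3 and Col15a1 changed by 1.27, 2.57 and 1.83, also uncalled, with SCC epithelia 2 the highest SCC sample in each. Second probe sets gave 2.17 for Col5a1, -0.22 for Col6a3 and 1.26 for Col15a1 (adjusted p = 0.135, 0.458 and 0.282). Col4a4, which lies head to head with Col4a3 and belongs to the kidney type of basement membrane, was at 4.92, 5.13 and 4.86 in normal, 5.62, 5.49 and 5.60 in dysplasia and 5.89, 5.21 and 5.25 in SCC epithelia, all at low signal. Its change of 0.48 was not called (adjusted p = 0.0723). Col4a3 was not analysed here.

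**Figure D4:**
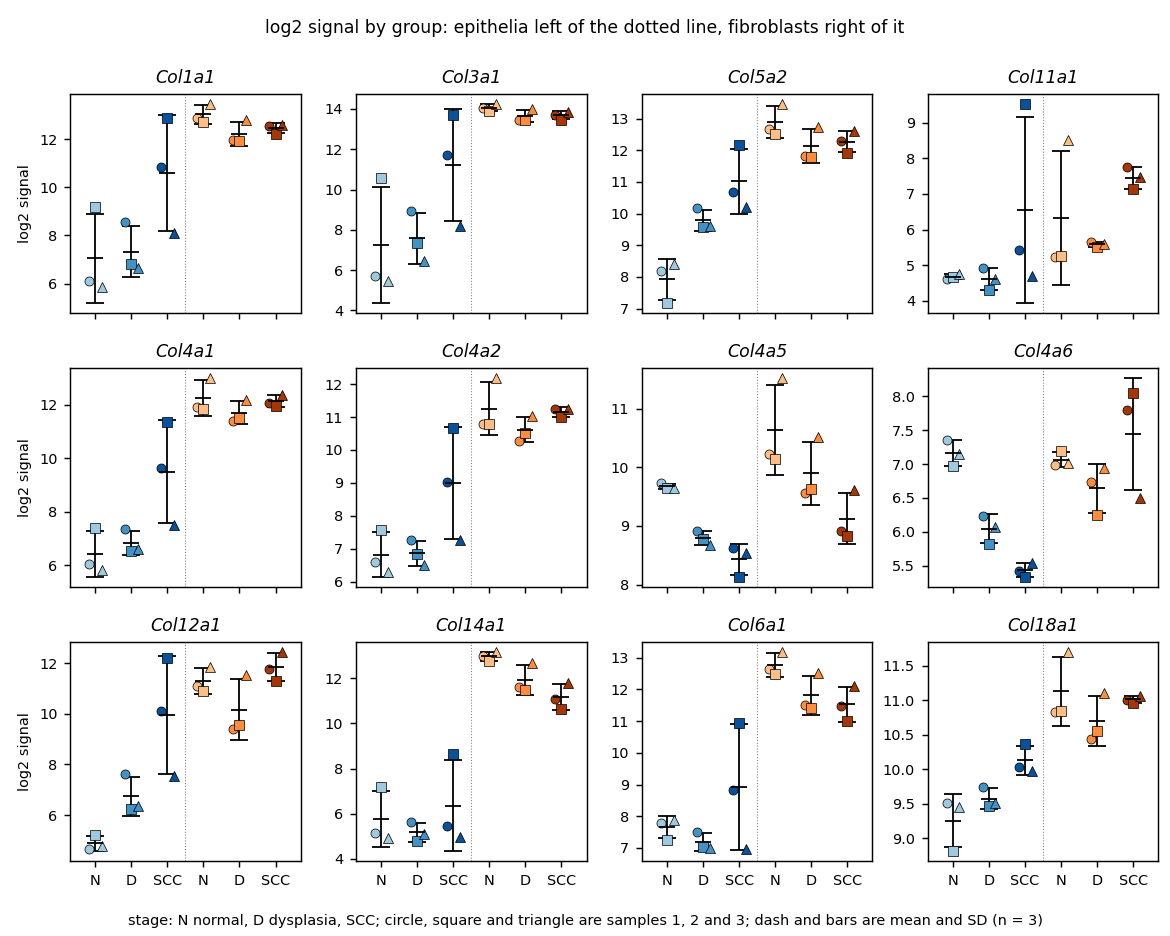
The y axes give the log2 signal of 12 collagen genes in the 6 groups, with a symbol per sample and the mean and SD (n = 3) of each group. Col4a5 and Col4a6 step down in the epithelia, Col5a2 and Col12a1 step up, and Col1a1, Col3a1, Col4a1 and Col6a1 spread widely among the SCC epithelia.

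In fibroblasts, no collagen gene passed the test from the normal to the dysplasia state. In limma 0 of 39 were called, against 0.171% of all probe sets. The methods' t-test again called 0 of all probe sets, so its 0 is not particular to the collagens. At an unadjusted p under 0.05, 0 were higher and 14 lower, against 8.26% and 9.78% of all probe sets, and by a fold of at least 2 with that p 0 were higher and 6 lower, against 1.11% and 1.28%. The median change was -0.43, against -0.04 for all probe sets, and 32 of 39 genes were below 0. With spike-in alignment the median was -0.54 and 36 were below 0, while the median of all probe sets moved to -0.15. Of the 20 genes with a mean log2 signal above 7, all 20 were below 0, with a median of -0.77. The median of all probe sets above that cut was -0.02. Some of the 20, such as Col14a1, passed the cut through their fibroblast signal. All were read from the same samples, so they are not independent of each other. The class medians were -0.74 for the fibrillar, -0.60 for the network, -0.04 for the FACIT and -0.43 for the other genes. The mean of the 20 fibroblast markers was 12.004, 11.831 and 12.287 in normal and 11.042, 10.999 and 12.001 in dysplasia fibroblasts, so it was lower too, and limma called 0 of the 20 in either direction (0 higher and 9 lower at an unadjusted p under 0.05).

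This outcome changed with the samples kept and with the fit. With all samples kept, a replicate block and array weights also called members, against 4.67% and 31% of all probe sets. Col6a3, a large type VI chain, was at 12.77, 12.52 and 13.37 in normal and 11.31, 11.29 and 12.65 in dysplasia fibroblasts. Dysplasia fibroblasts 3 lay within the normal range and the other dysplasia samples below it. The change was -1.14 ± 0.40 (adjusted p = 0.205). Without dysplasia fibroblasts 3 it was -1.59 (adjusted p = 0.0412), and 4 genes were called lower, namely Col12a1, Col14a1, Col1a2 and Col6a3, against 3.22% of all probe sets called. Without the third sample of all 3 fibroblast groups, a setting added after seeing the data, 21 genes were called lower and 0 higher. The share of all probe sets called rose as well, from 0.171% to 26.5%, 47.3% of those higher. Among the 21 genes were Col1a1 (-0.87, adjusted p = 0.00865), Col3a1 (-0.50, 0.0297), Col14a1 (-1.33, 0.0046) and Col8a2 (-1.54, 0.00283). The samples left out differed from the others in markers of several cell types, such as the 14 macrophage markers, whose mean was 11.33, 10.98 and 8.77 in normal and 8.64, 8.57 and 10.47 in dysplasia fibroblasts.

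From the dysplasia to the SCC state, no collagen gene passed the test in fibroblasts either. In limma 0 of 39 were called, against 1.85% of all probe sets, and the methods' t-test called 0, against 0.515%. At an unadjusted p under 0.05, 3 were higher and 1 lower, against 9.39% and 7.99%. By a fold of at least 2 with that p 3 were higher and 0 lower, against 2.06% and 0.686%. The median change was 0.03 (0.74 with spike-in alignment, which moved the median of all probe sets to 0.71). The 3 higher genes were Col5a3, Col12a1 and Col11a1. Col12a1 was at 9.39, 9.55 and 11.55 in dysplasia and 11.77, 11.31 and 12.44 in SCC fibroblasts. SCC fibroblasts 2 lay just below dysplasia fibroblasts 3. The change was 1.68 ± 0.56 (adjusted p = 0.176). Other, dimmer probe sets of Col12a1 gave 0.84 and 0.53 (adjusted p = 0.581 and 0.413). With the sample number as a block the probe set used was called (adjusted p = 0.0353). In that blocked fit 2 genes were called, Col12a1 higher and Col4a5 lower (-0.78, adjusted p = 0.049), against 2.73% of all probe sets. Col12a1 was also the 1 gene called without dysplasia fibroblasts 3 (2.37, adjusted p = 0.028), and without the third samples 10 genes were called, 8 higher and 2 lower, against 16.2% of all probe sets.

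Col11a1, a fibrillar chain that nucleates thin fibrils, is outside the rule for naming genes and was picked after its values were seen. It was at 5.22, 5.26 and 8.50 in normal, 5.66, 5.53 and 5.59 in dysplasia and 7.75, 7.14 and 7.47 in SCC fibroblasts. The SCC samples lay above all dysplasia samples, and normal fibroblasts 3 lay above them all. The change from dysplasia to SCC was 1.86 ± 0.74 (adjusted p = 0.243). It was 1.85 without the third samples (adjusted p = 0.00393). In epithelia it was at 9.53 in SCC epithelia 2 and between 4.31 and 5.43 in the other samples.

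From the normal to the SCC state, 5 collagen genes fell in fibroblasts and 0 rose (limma). At an unadjusted p under 0.05, 0 were higher and 12 lower, against 15.3% and 18.4% of all probe sets, and the methods' t-test called 0 higher. They were Col14a1, Col25a1, Col2a1, Col4a5 and Col6a1. They are 12.8% of the members, against 15.2% of all probe sets called, 7.82% higher and 7.43% lower. The median change of the members was -0.35, against -0.05 for all probe sets, and 31 of 39 were below 0. With spike-in alignment this turned: the median was 0.26 and 12 were below 0, while the median of all probe sets moved to 0.56, and 2 genes were called, Col14a1 lower and Col6a5 higher. Each of the 5 genes stayed below 0 in that setting. The class medians were -0.52 for the fibrillar, -0.13 for the network, -0.03 for the FACIT and -0.58 for the other genes. Of the fibroblast markers 6 of 20 fell and 0 rose, with a median of -0.88, and their mean in SCC fibroblasts was 11.08, 10.83 and 11.68.

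Col14a1, the FACIT chain of undulin, had the largest fall in fibroblasts. It was at 12.96, 12.76 and 13.17 in normal, 11.61, 11.46 and 12.69 in dysplasia and 11.07, 10.65 and 11.78 in SCC fibroblasts. All SCC samples lay below all normal ones. The change was -1.80 ± 0.36 (adjusted p = 0.0166), a second probe set gave -2.03 (adjusted p = 0.0224), and the call was lost without normal fibroblasts 1, SCC fibroblasts 1 or SCC fibroblasts 2 (adjusted p = 0.0509, 0.0697 and 0.0701). It stayed called with spike-in alignment (-1.19, adjusted p = 0.0388). The other FACIT chain of type I fibrils, Col12a1, changed by 0.55 over the same samples (95% interval -0.71 to 1.81, adjusted p = 0.52). Dimmer probe sets of Col12a1 gave -0.46 and 0.21 (adjusted p = 0.679 and 0.656).

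Col4a5 was at 10.23, 10.15 and 11.53 in normal, 9.56, 9.63 and 10.52 in dysplasia and 8.91, 8.84 and 9.62 in SCC fibroblasts. The third sample was the highest of each group, and no SCC sample reached the normal range. The change was -1.52 ± 0.41 (adjusted p = 0.0404), lost without any 1 of 7 fibroblast samples, all except dysplasia and SCC fibroblasts 3 (adjusted p from 0.0551 to 0.141). Its neighbour Col4a6 was at 6.99, 7.19 and 7.02 in normal and 7.80, 8.05 and 6.50 in SCC fibroblasts, with SCC fibroblasts 3 low and the other SCC samples above the normal ones. The change of 0.38 was not called (95% interval -0.44 to 1.21, adjusted p = 0.495). A dimmer second probe set of Col4a6 gave -0.40 (adjusted p = 0.2), so the direction was not settled. Col6a1 was at 12.66, 12.48 and 13.19 in normal and 11.48, 11.01 and 12.10 in SCC fibroblasts, without overlap. Its change was -1.24 ± 0.36 (adjusted p = 0.0491), lost without any 1 of the same 7 samples (adjusted p from 0.0602 to 0.171), and the other type VI chains Col6a2 and Col6a3 gave -0.90 (adjusted p = 0.0575) and -1.04 (adjusted p = 0.105).

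The remaining called genes were Col25a1 and Col2a1. Col25a1, a membrane collagen known from neurons, was at 5.07, 5.13 and 5.52 in normal, 4.52, 3.74 and 3.73 in dysplasia and 3.31, 3.74 and 4.04 in SCC fibroblasts. The normal samples lay above the others. The change was -1.54 ± 0.26 (limma adjusted p = 0.0099). With a mean of 3.71 over the 18 samples, above only 3.42% of all probe sets, Col25a1 was near the low end of the arrays. Its signal was not shown to be above background. Col2a1, the cartilage fibril chain, was at 7.31, 7.29 and 7.26 in normal and 6.60, 6.67 and 6.62 in SCC fibroblasts, a small change with very little scatter (-0.65 ± 0.11, adjusted p = 0.00806). However, 2 other probe sets of Col2a1 gave 0.14 and 0.22 (adjusted p = 0.683 and 0.535), and spike-in alignment reduced it to -0.05. Col8a2, a network chain, was at 11.49, 11.29 and 11.20 in normal and 9.62, 9.19 and 10.65 in SCC fibroblasts, again without overlap, and its change of -1.50 ± 0.44 was just outside the threshold (adjusted p = 0.0509).

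**Figure D5:**
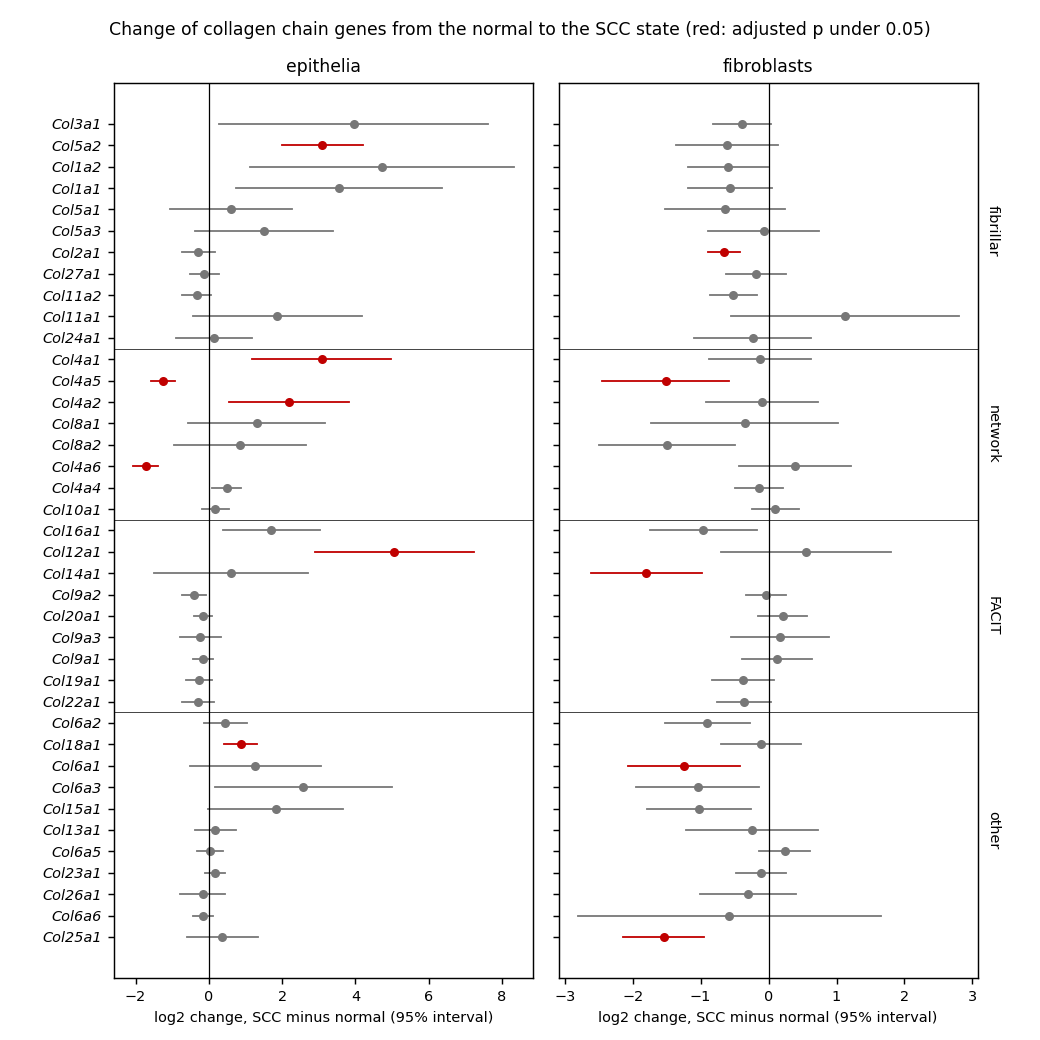
The points are the log2 changes from the normal to the SCC state with 95% intervals, in epithelia on the left and fibroblasts on the right, each panel with its own x scale, and red marks an adjusted p under 0.05. In epithelia 5 of the red points lie above 0 and 2 below, and in fibroblasts all 5 lie below 0.

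The difference between the layers in their change was tested directly in 1 fit of all 18 samples. From normal to SCC it differed for 8 genes, 1 in the higher and 7 in the lower direction (fibroblast change minus epithelial change), or 20.5% of the members against 16.5% of all probe sets, 9.39% higher and 7.12% lower. From normal to dysplasia it differed for 1 gene, Col5a2, against 4.13% of all probe sets. From dysplasia to SCC limma called 0, against 0.651%, with 1 higher and 5 lower at an unadjusted p under 0.05, against 8.12% and 4.75%, and 1 gene called with array weights. Col5a2 changed by 1.87 in epithelia and by -0.76 in fibroblasts from normal to dysplasia, a difference of -2.63 ± 0.64 (adjusted p = 0.0326), and from normal to SCC the difference was -3.72 ± 0.64 (adjusted p = 0.00155). Col4a6 was the 1 gene in the higher direction: it fell in epithelia by 1.73 and changed by 0.38 in fibroblasts, a difference of 2.11 ± 0.42 (adjusted p = 0.00385), although its second probe set gave 0.28 (adjusted p = 0.442). These results for Col5a2 and Col4a6 from normal to SCC were called without each of the 12 samples of those stages in turn. For Col4a5 the difference was not called, and its change was downward in both layers.

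Most collagen chains need shared enzymes to fold, and these were read from lists of such genes. Of 18 measured genes for modification and folding, 7 rose and 1 fell in epithelia from normal to SCC, where 12.6% of all probe sets were higher and 17.3% lower. Plod2, a lysyl hydroxylase, rose by 2.97 (adjusted p = 0.0254), the collagen chaperone Serpinh1 by 1.67 (0.0277), the prolyl hydroxylase P4ha1 by 1.60 (0.00463) and P4ha2 by 1.04 (0.0357). In fibroblasts, where 7.82% of all probe sets were higher and 7.43% lower, 1 rose and 1 fell: Tmem38b, an ion channel of the endoplasmic reticulum, rose by 2.26 (adjusted p = 0.00299), and the collagen galactosyltransferase Colgalt2 changed by -1.43 (adjusted p = 0.0327). From normal to dysplasia in epithelia, with 14.5% of all probe sets called, the same pair was called, Tmem38b with 0.99 (adjusted p = 0.0197) and Colgalt2 with -0.53 (adjusted p = 0.0183). Of 7 measured genes for processing and crosslinking, 3 rose in epithelia from normal to SCC, namely the lysyl oxidases Lox (4.91, adjusted p = 0.0284) and Loxl2 (1.56, adjusted p = 0.0431) and the procollagen proteinase Bmp1 (1.31, adjusted p = 0.0033), while Bmp1 was lower in SCC than in normal fibroblasts (-0.72, adjusted p = 0.0372). Of 6 measured receptors, Itgb1 rose in epithelia (0.69, adjusted p = 0.0266), and Itga11 (-2.01, adjusted p = 0.0072) and Ddr2 (-1.86, adjusted p = 0.0471) fell in fibroblasts. The medians of the 3 lists in epithelia were 0.68, 1.56 and 0.51, and in fibroblasts -0.45, -0.84 and -0.75. The mean of the 7 processing genes was 5.59, 5.99 and 5.61 in normal and 7.26, 9.52 and 5.74 in SCC epithelia. SCC epithelia 3 thus lay within the normal range. The 18 modification genes were at 8.07, 8.09 and 8.10 in normal and 8.70, 9.57 and 8.31 in SCC epithelia. In SCC epithelia all 3 lists ran in the order of the fibroblast markers, whose part was not tested.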

How the data were processed

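RNA of 18 samples in 6 groups was hybridised to Affymetrix rat expression arrays. The deposited values are linear signal intensities that the authors summarised per probe set by RMA in Affymetrix Expression Console, per the labels. Here the log2 of these intensities was taken, and 57 control probe sets of the 31099 deposited were left out. Of the 31042 tested, 20826 name 1 gene in the platform annotation, 436 several and 9780 none. The array medians of the deposited values differed on the log2 scale, from 6.53 to 6.77 in epithelia and from 6.79 to 6.86 in fibroblasts, and the number of arrays limits the precision.

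Stage comparisons were fitted in limma 3.58.1 (R 4.3.3) over the 9 arrays of a layer (6 residual degrees of freedom), layer comparisons and layer differences over all 18 (12 residual degrees of freedom). P-values were two-sided and Benjamini-Hochberg adjusted over all probe sets, with calls at an adjusted p under 0.05. With 3 samples a group the smallest exact permutation p is 0.1, so that test was not used. The fits were tested on simulated data, and plots were drawn with matplotlib 3.10.9. Genes named with values were the members called in a stage comparison or layer difference, up to 4 of the brightest others per class, and the type IV pairs. Of the lists up to 4 called genes per comparison were named. Members and lists were chosen with earlier results of these data known.

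Same-numbered samples were checked for pairing by the correlation of their deviations from group means. Between dysplasia and SCC fibroblasts it was 0.321, 0.452 and 0.592, every pair over 0.1, so the blocked result is given there. Unequal numbers gave values as high (0.326 for 1 with 2 and 0.352 for 2 with 1) and the labels do not state what a number shares, so the numbers are not shown to pair the samples. In the other comparisons at least 1 pair was at or below 0.1. Alternatives were quantile normalization, alignment on 18 spike-in probe sets, a filter on dim probe sets (14424 kept), other fits, array weights, the methods' t-test, the mean of a gene's probe sets, a fold of at least 2, and leaving out each sample. Leaving out normal and SCC epithelia 2, or the third fibroblast samples, was chosen after seeing the data.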

Additional observations from a re-analysis of the deposited data

Results flagged for a closer look

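The change from one stage to another differed between the layers in the following results, each by the interaction test in limma over all 18 samples and given as the fibroblast change minus the epithelial change on the log2 scale. From the normal to the dysplasia state this was Col5a2 (-2.63, adjusted p = 0.0326). From the normal to the SCC state the values were -3.72 for Col5a2 (adjusted p = 0.00155), 2.11 for Col4a6 (0.00385), -4.51 for Col12a1 (0.0195), -2.67 for Col16a1 (0.0224), -1.91 for Col25a1 (0.025), -1.36 for Col6a2 (0.0318), -3.20 for Col4a1 (0.036) and -5.33 for Col1a2 (0.0494).

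Leaving out each of the 12 samples concerned in turn, Col5a2 and Col4a6 from normal to SCC were called every time, Col12a1 in 11 cases, Col16a1 in 10, Col25a1 in 7, Col4a1 in 5, Col6a2 in 4 and Col1a2 in 2. Col5a2 from normal to dysplasia was called in 5 of 12. Col25a1 was near the low end of the arrays, with a mean log2 signal of 3.71, and was not shown to be above background. The other probe sets of Col12a1 gave -0.73 and 0.47, that of Col4a6 gave 0.28, and none of these was called (adjusted p = 0.655, 0.459 and 0.442). The second probe sets of Col5a2 (-3.76, adjusted p = 0.00376) and Col4a1 (-3.42, adjusted p = 0.0394) were called. Over the same stages 9 of the 20 fibroblast markers were called in the lower direction, and their part in these values was not tested. Groups of 3 samples were too small to test for single outlying samples.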

How the results depend on the processing

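The counts below are collagen genes called of 39, and percentages in brackets are shares of all probe sets called under that setting. In epithelia, from normal to dysplasia (3 called), 8 were called with 2 groups only (17.2%) and 5 with array weights (31.8%). From dysplasia to SCC (0), 8 passed a fold of 2 with an unadjusted p. From normal to SCC (7), 11 were called with quantile normalization (30.1%), 11 with spike-in alignment (21.5%), 11 with a replicate block (26.3%), 11 by fold of 2, 14 in 1 fit of all arrays (27.4%), 13 with array weights (31.6%) and 3 by the methods' t-test (14.9%). In fibroblasts, from normal to dysplasia (0), 12 were called with a replicate block (4.67%), 21 with array weights (31%), 21 without the third samples (26.5%) and 6 by fold of 2. From dysplasia to SCC (0), 8 were called with spike-in alignment (29.5%), 2 with 2 groups only (2.25%), 2 with the replicate block (2.73%), 15 with array weights (30.4%), 10 without the third samples (16.2%) and 3 by fold of 2. From normal to SCC (5), 2 were called with spike-in alignment (23.8%), 8 with a trend and robust prior (16%), 1 by the methods' t-test (2.85%), 14 with a replicate block (23.9%), 21 with array weights (57.9%) and 18 without the third samples (42.3%). Estimation of array weights did not fully converge in 3 fits. Between layers, the filter on dim probe sets left 19 called of 30 in the normal and 14 of 22 in the SCC state, where fewer members are tested. Layer differences of change called 5 (normal to dysplasia, 26%) and 20 (normal to SCC, 39.6%) with array weights, and from dysplasia to SCC (0) 4 with spike-in alignment (39.6%), 1 with array weights (11.6%) and 1 without the third samples (3.18%). Leaving out 1 sample gave ranges, in the same order, of 2 to 5, 0 to 6 and 5 to 16 in epithelia, 0 to 4, 0 to 2 and 2 to 9 in fibroblasts, 28 to 30, 25 to 29 and 14 to 27 between layers, and 0 to 1, 0 to 2 and 2 to 16 for layer differences. The highest values for epithelia from dysplasia to SCC and from normal to SCC, and the lowest for SCC between layers, came without SCC epithelia 3. Where a group was left with 1 or 2 samples, it was assumed to vary like the others.

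Spike-in alignment turned the direction of Col19a1 (-0.38) and Col27a1 (-0.38) between normal layers and of Col19a1 (-0.51) and Col4a5 (-0.0093) between dysplasia layers. It moved the median of all probe sets by stage in fibroblasts to 0.71 and 0.56 (SCC against dysplasia and against normal) and between layers to -1.01, -1.22 and -0.37. The share of all calls that were higher went from 51.3% to 97.9% in fibroblasts from normal to SCC, from 82.5% to 99.9% from dysplasia to SCC, from 48.1% to 69.6% in epithelia from normal to dysplasia, and from 43.7% to 14.8%, 45.7% to 8.04% and 52.6% to 28.6% between layers. For the layer differences it went from 53.2% to 26.7% (normal to dysplasia) and from 56.9% to 92.4% (normal to SCC). The cause was not tested.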

Other observations

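The other marker lists gave the following values. In SCC against normal epithelia, 9 of 14 macrophage markers rose and 0 fell, 2 of 10 pericyte and smooth muscle markers rose, 1 of 8 neutrophil markers rose and 1 fell, 2 of 13 skeletal muscle markers fell and 1 of 4 Schwann cell markers fell. The macrophage mean was 8.32, 9.32 and 6.99 in SCC epithelia and between 5.95 and 6.03 in normal epithelia. In SCC against normal fibroblasts, 6 of 8 neutrophil markers rose, with means of 7.95, 7.93 and 8.03 in SCC and 6.24, 5.98 and 5.89 in normal fibroblasts, so these groups did not overlap. In the same comparison 1 of 13 skeletal muscle markers fell, and limma called 0 of the macrophage (1 higher and 0 lower at an unadjusted p under 0.05), endothelial (0 and 0), epithelial (3 and 0), pericyte (0 and 2) and Schwann cell markers (2 and 1).

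Among the 17 further probe sets of members with several, the sign of the change was that of the brightest probe set in 13 for epithelia from normal to SCC, in 13 for fibroblasts from normal to SCC and in 14 for normal fibroblasts against normal epithelia. Among those whose gene was called on its brightest probe set, the sign was shared by 5 of 6, 1 of 3 and 11 of 12 in the same order.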
